A study of Homo sapiens with 46 samples.

Results

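The genes described here encode the main coat proteins of caveolae: the caveolins CAV1 and CAV2, the cavins CAVIN1, CAVIN2 and CAVIN3, and the ATPase EHD2. The 6 genes were taken by symbol from a table of 62756 genes, and the group was chosen by the measured fall of CAVIN1 under auxin in cells that carry a degron on Lamin A/C. The auxin contrasts of that line are therefore given as a description, with no test, and tests were kept for the other comparisons. Of the 6 genes, 4 (CAVIN1, CAV1, CAV2 and EHD2) were among the 21484 genes that passed the low-count filter, and CAVIN2 and CAVIN3 did not.

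Caveolae are small flask-shaped pits of the plasma membrane that flatten when the membrane is stretched and so buffer tension. Caveolins are hairpin proteins inserted into the inner leaflet, and CAV2 is carried to the surface by CAV1. Cavins form an outer coat, in which CAVIN1 is the obligate member that stabilises caveolins, and EHD2 forms a ring at the neck that keeps caveolae at the surface. Caveolae are abundant in endothelium, adipocytes, muscle and fibroblasts, and many epithelial tumour lines hold few.

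The libraries were total RNA-seq of DLD-1, an adherent human colorectal adenocarcinoma line. The parental line is untagged. In the 3 derived lines an auxin-inducible degron (AID) was fused to an endogenous lamin, the filament proteins under the inner nuclear membrane: Lamin A/C (LA/C-AID, called LAC), Lamin B1 (LB1-AID, LB1) or Lamin B2 (LB2-AID, LB2). All 4 lines, the parental line included, received 1 mM auxin for 0, 16 or 96 h. The auxin was dissolved in DMSO, and the labels do not say whether the 0 h wells received DMSO. Of the 12 groups, 10 had 4 libraries, and LB1 at 0 h and LB2 at 96 h had 3. Replicates are separate wells, so the p-values measure the spread between wells, and a difference between lines cannot be told apart from a difference between the derived lines as lines. The degron acts on protein, and lamin protein was not analysed here.

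Promoter sequence is shown for CAV1, CAV2 and EHD2, and for CAVIN2, which was hardly detected. RefSeq promoter windows of 250 bases before the start (GRCh38.p14) were at hand for these 4 of the 6 members, with 7 starts in all. There was no window for CAVIN1 or CAVIN3, so the motif counts do not cover them. The stretches below lie outside every GENCODE release 29 exon, run 5′ to 3′ on the strand of the gene, and carry matches to the SP1 GC box (GGGCGG or its complement CCGCCC) in capitals.
CAV1, the third start, chr7:116526112-116526276, plus strand: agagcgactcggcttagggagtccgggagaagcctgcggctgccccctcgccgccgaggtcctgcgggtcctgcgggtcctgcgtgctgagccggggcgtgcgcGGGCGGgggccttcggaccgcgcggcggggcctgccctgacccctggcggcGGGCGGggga
CAV2, the second start, chr7:116499932-116500043, plus strand: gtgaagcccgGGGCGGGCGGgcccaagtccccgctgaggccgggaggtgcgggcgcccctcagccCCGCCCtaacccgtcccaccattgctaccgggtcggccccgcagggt
EHD2, chr19:47713172-47713342, plus strand: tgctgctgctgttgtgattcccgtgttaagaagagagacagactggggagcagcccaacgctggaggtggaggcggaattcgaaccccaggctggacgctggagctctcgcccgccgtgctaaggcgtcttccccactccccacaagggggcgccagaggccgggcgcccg
CAVIN2, chr2:191847256-191847338, minus strand: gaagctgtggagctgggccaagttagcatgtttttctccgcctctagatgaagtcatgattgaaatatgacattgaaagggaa
Over the whole 250-base windows, GGGCGG had 3, 3 and 2 matches at the 3 starts of CAV1, 6 and 3 at the 2 starts of CAV2 (2 of the 3 overlap), 1 at EHD2, in the part not printed, and 0 at CAVIN2. Of 27305 human promoters of that length, 42.3% held this motif. The windows of the first 2 CAV1 starts (chr7:116524759-116525008 and chr7:116524786-116525035) overlap, so the same site can count in both. GC content was 63.6%, 63.2% and 73.2% in the CAV1 windows and 83.2% and 70.0% in those of CAV2. It was 69.6% for EHD2 and 48.0% for CAVIN2, and the median of all promoters was 58.0%. The TEAD core GGAATG (or CATTCC), found in 11.9% of promoters, had 1 match, at CAVIN2 in the part not printed. The AP-1 site TGANTCA, in 6.6% of promoters, had 0 matches at the 7 starts. The motif searches used both strands, and a match describes letters only.

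Library totals ran from 479446 to 37309421 counts, with a median of 11533218, and 6 libraries had under 5000000. At 0 h the mRNA of each tagged lamin was below the parental level in its own line: LMNA by a log2 difference of -0.77 in LAC (adjusted p = 0.0346, edgeR), LMNB1 by -0.64 in LB1 (0.0115) and LMNB2 by -1.02 in LB2 (0.000857). Untagged lamins differed too. Untreated LAC cells held more LMNB1 (0.62, adjusted p = 0.0025, edgeR) and LMNB2 (0.81, 0.00481) than parental cells. In LB1 cells LMNA was lower at 96 h than at 0 h (-1.25, adjusted p = 0.00359, edgeR). Colorectal epithelial markers summed to 5820 to 13100 CPM (counts relative to a library size scaled by TMM, the trimmed mean of M-values), and 11 of the 12 averaged over 1 CPM. Markers of cell types rich in caveolae were low beside these: 5 endothelial genes summed to 2.18 to 17.5 CPM, 6 fibroblast genes to 0 to 6.1 (COL1A2 and DCN at 0 in every library), 5 adipocyte genes to 0 to 4.35, and 5 muscle genes to 3.88 to 18.6. Single markers were not absent: VWF alone held 2.18 to 17.5 CPM, ACTA2 0 to 13.3 and MYH11 0.968 to 7.94. These ranges overlap that of the member EHD2, 4.11 to 24.0 CPM. Apart from the rest stood 3 libraries, with a median correlation with their group mates under 0.95: replicate 1 of LAC at 0 h (0.9105, 3318819 counts), replicate 1 of LB2 at 0 h (0.8879, 1894447 counts) and replicate 3 of LB2 at 16 h (0.8604, 479446 counts). Fold changes also followed GC content in some comparisons: over 8657 genes Spearman's rho was -0.708 for LAC at 16 h, -0.654 for LAC at 96 h, -0.478 for LB2 at 16 h and 0.485 for LAC against parental at 0 h. It was 0.0102 and 0.0211 for the parental line at 16 h and 96 h, 0.225 and -0.166 for LB1, and -0.213 for LB2 at 96 h. Single parental libraries still differed in their relation to GC. Over 8600 genes, rho of a library's deviation from the mean level with GC ran from -0.263 to 0.328 at 0 h. At 96 h it ran from -0.354 in replicate 1 to 0.618 in replicate 2. The mature transcripts of CAVIN1 (59.9% GC) and EHD2 (61.6%) are richer in GC than 87% and 91.2% of tested genes, and those of CAV1 (46.2%) and CAV2 (40.7%) than 42.6% and 18.9%.

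CAVIN1 was the most abundant member and CAVIN2 and CAVIN3 were close to absent. In untreated parental cells, per kilobase of gene length, CAVIN1 stood at 80.8 ± 8.80 CPM per kilobase (SD, n = 4), CAV1 at 13.4 ± 2.88, CAV2 at 4.11 ± 0.492 and EHD2 at 3.62 ± 0.574. The last 2 did not differ beyond their spread. CAVIN2 (ENSG00000168497.5, chr2:191834310-191847088) had 20 counts in all 46 libraries together and was at 0 in 36, which is 0.0322 CPM over the pooled counts (exact Poisson 95% interval 0.0197 to 0.0498, counting error only). CAVIN3 (chr11:6318946-6320532) had 2 counts in all and was at 0 in 44 libraries, 0.00322 CPM (0.00039 to 0.0116). No fold change is given for either cavin, and changes in them were not detectable at this depth.

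CAVIN1 (ENSG00000177469.13, chr17:42402449-42423256, minus strand, GRCh38) was lower at 96 h of auxin than at 0 h in every line, the untagged one included, and had its lowest level of all in LB1 at 96 h. In parental cells the 4 libraries held 309, 274, 319 and 251 CPM at 0 h, 237, 214, 241 and 237 at 16 h, and 147, 232, 147 and 151 at 96 h. Every later library was below every 0 h library. The change at 96 h was -0.77 (log2, SE 0.245, adjusted p = 0.0425, edgeR), a 1.70-fold drop, and that at 16 h was -0.31 and did not pass (adjusted p = 0.437). The latter passed in a fit of the compared groups alone (-0.39, adjusted p = 0.00301) and under the replicate block with trend removal (-0.40, adjusted p = 0.0309). The 96 h call is close to the threshold: leaving out any 1 library other than replicate 2 at 96 h ended it (7 of 8 libraries, adjusted p = 0.0564 to 0.112, edgeR), with the change between -0.69 and -0.83.

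In LB1 cells CAVIN1 stood at 162, 221 and 197 CPM at 0 h, at 399, 277, 252 and 194 at 16 h, and at 48.2, 46.5, 58.6 and 65.6 at 96 h. The 16 h libraries overlapped the untreated ones, and all 4 libraries at 96 h lay far below both. The fall at 96 h was -1.81 (SE 0.268, adjusted p = 7e-06, edgeR), a 3.51-fold drop, and was the 102nd lowest log2 fold change of the 21484 genes tested. It ranged from -1.92 to -1.66 over 18 alternatives and passed in each. At 16 h the change was 0.54 (adjusted p = 0.323). The fall in LB1 at 96 h exceeded the parental one by -1.04 (95% interval -1.77 to -0.32), but this difference did not pass over all genes (adjusted p = 0.138, edgeR). It passed without the 3 libraries that stand apart (-1.04, adjusted p = 0.00608) and after removal of the GC and length trend (-0.84, adjusted p = 0.0187), among 7 alternatives in which it did, and in none of the 15 that left out 1 library. None of the libraries that stand apart is of LB1 or parental cells, so they enter this difference only through the fit that all groups share.

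In LB2 cells CAVIN1 stood at 773, 274, 242 and 246 CPM at 0 h, at 350, 297, 244 and 255 at 16 h, and at 138, 186 and 167 at 96 h. The first of the untreated values belongs to a library that stands apart, and all 3 late libraries were below all untreated ones. The change at 96 h was -1.21 (SE 0.272, adjusted p = 0.00438, edgeR). The call was lost without libraries under 5000000 counts (-0.64, adjusted p = 0.0525) and in a fit of the compared groups alone (-1.22, adjusted p = 0.24). Without replicate 1 at 0 h alone it was -0.63 and did not pass (adjusted p = 0.0888), and without all 3 libraries that stand apart it was -0.65 and passed (adjusted p = 0.0146). At 16 h the change was -0.39 (adjusted p = 0.428), and it turned to 0.16 without that replicate.

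In LAC cells, the line from which the group of genes was chosen, CAVIN1 stood at 794, 334, 476 and 429 CPM at 0 h, at 384, 317, 379 and 268 at 16 h, and at 139, 83.0, 98.1 and 131 at 96 h. The 96 h libraries lay below all others, and the highest untreated value is again that of a library that stands apart. As a description, the log2 change was -0.59 (SE 0.243) at 16 h and -2.17 (SE 0.253) at 96 h, the latter a 4.50-fold drop and the 66th lowest of 21484. It was -1.77 after removal of the GC and length trend and -1.86 without the 3 libraries. Against the parental change it was -1.40 (SE 0.346), or -0.92 with the trend removed. Before auxin, CAVIN1 was 1.76-fold higher in LAC than in parental cells (log2 0.81, SE 0.245). This is a description too, since the same untreated LAC libraries enter the fall that chose the group. The difference was 0.54 without replicate 1 of LAC and 0.48 with the trend removed.

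**Figure D1:**
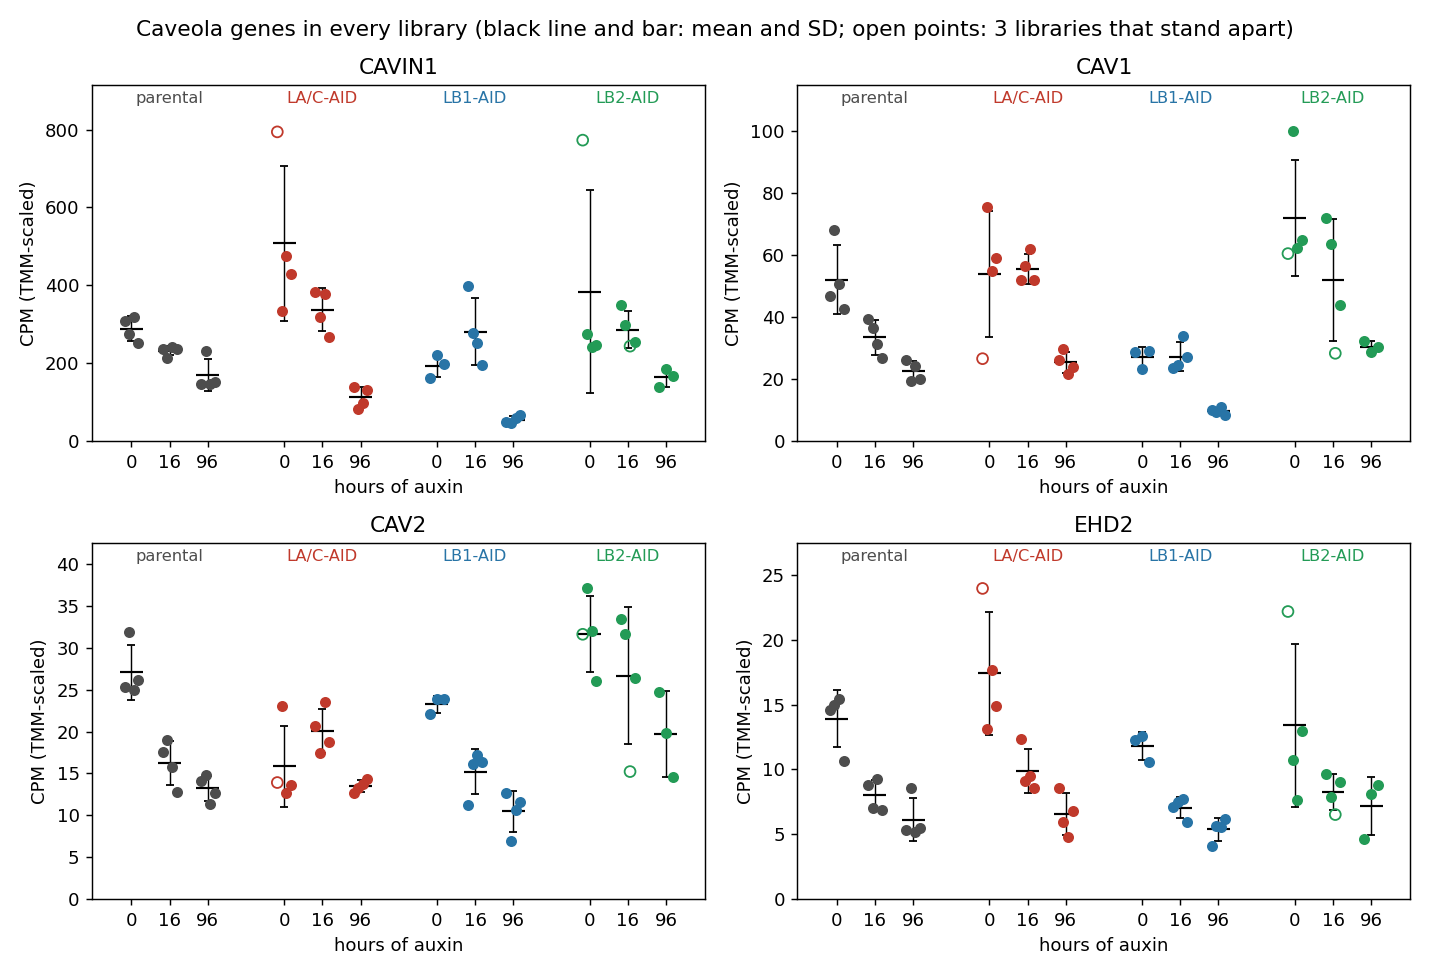
CPM of CAVIN1, CAV1, CAV2 and EHD2 (y axis, linear from 0) by hours of auxin in the 4 lines, with 1 point per library, black lines for the mean and bars for the SD. Open points are the 3 libraries that stand apart. The 4 LB1 libraries at 96 h held 46.5 to 65.6 CPM of CAVIN1, and 2 of the open points carry its highest values, 794 and 773 CPM.

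CAV1 (ENSG00000105974.13, chr7:116524994-116561179, plus strand), the caveolin on which caveola formation depends in most tissues, was lower at 96 h in each line, with log2 changes from -1.51 to -1.12. Parental libraries held 46.8, 67.9, 50.8 and 42.5 CPM at 0 h, 39.5, 36.4, 31.2 and 26.8 at 16 h, and 26.2, 19.4, 24.3 and 19.9 at 96 h. Neither time overlapped the untreated libraries. The change was -0.64 at 16 h (SE 0.196, adjusted p = 0.0333, edgeR) and -1.22 at 96 h (SE 0.201, adjusted p = 6.24e-05), a 2.34-fold drop. The 16 h call ended without any 1 of 6 of the 8 libraries, all but replicate 4 at 0 h and replicate 1 at 16 h (adjusted p = 0.0545 to 0.186), and the 96 h call held in all 19 alternatives.

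LB1 cells started lower in CAV1, with 28.8, 23.2 and 28.9 CPM at 0 h, stayed at 23.4, 24.6, 33.7 and 27.2 at 16 h, and held 10.1, 9.26, 10.9 and 8.28 at 96 h, the lowest CAV1 level of the 12 groups. The untreated LB1 level was 1.89-fold below the parental one (log2 -0.92, SE 0.223, adjusted p = 0.00706, edgeR), a call that ended without parental replicate 2 (-0.72, adjusted p = 0.0804). The 96 h fall was -1.51 (SE 0.226, adjusted p = 8.05e-06) and passed in all 18 alternatives. At 16 h the change was -0.02 (95% interval -0.46 to 0.42). LB2 libraries held 60.4, 99.8, 62.3 and 64.7 CPM at 0 h, 71.9, 63.4, 28.3 and 44.0 at 16 h, and 32.1, 28.7 and 30.2 at 96 h. The late libraries did not overlap the untreated ones, with a change of -1.26 (SE 0.216, adjusted p = 0.000147, edgeR). LAC libraries held 26.5, 75.5, 54.8 and 59.0 CPM at 0 h, 51.9, 56.6, 61.8 and 51.8 at 16 h, and 26.1, 29.7, 21.8 and 24.0 at 96 h. The early and late libraries overlapped through the untreated library that stands apart. The described change was -1.12 (SE 0.194) at 96 h and 0.01 at 16 h. That library had the highest CAVIN1 and the lowest CAV1 of its group.

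CAV2 (ENSG00000105971.15, chr7:116287380-116508541, plus strand), the partner of CAV1, ends 16453 bases before the start of CAV1. Parental libraries held 25.3, 31.9, 24.9 and 26.1 CPM at 0 h, 17.6, 18.9, 15.8 and 12.8 at 16 h, and 14.1, 14.8, 11.4 and 12.7 at 96 h. The fall was -0.72 at 16 h (SE 0.181, adjusted p = 0.0086, edgeR) and -1.03 at 96 h (SE 0.184, adjusted p = 0.000219), and both passed in all 19 alternatives. In LB1 the level went from 22.1, 23.9 and 23.8 CPM over 11.2, 16.1, 17.2 and 16.3 at 16 h to 12.7, 7.00, 10.7 and 11.6 at 96 h, a fall of -1.14 (SE 0.2, adjusted p = 0.00015). In LB2 it went from 31.6, 37.1, 32.0 and 26.0 CPM over 33.5, 31.6, 15.2 and 26.4 at 16 h to 24.7, 19.8 and 14.6, a fall of -0.71 (SE 0.195, adjusted p = 0.0277, edgeR). The LB2 call ended without any 1 of replicates 2 and 3 at 0 h and 2 and 3 at 96 h (adjusted p = 0.0536 to 0.287), in a fit of the compared groups alone (0.232) and without the low-count filter (0.0579). CAV2 was the member that moved least in LAC at 96 h: 13.9, 23.1, 12.7 and 13.7 CPM at 0 h, 20.6, 17.4, 23.5 and 18.8 at 16 h, and 12.6, 13.3, 13.8 and 14.4 at 96 h. The described changes were 0.30 at 16 h and -0.27 at 96 h, and the latter was 0.03 without replicate 2 at 0 h. Untreated LAC cells already held 1.67-fold less CAV2 than parental cells (log2 -0.74, SE 0.183, adjusted p = 0.00379, edgeR), and this passed in all 19 alternatives. Antisense transcripts overlap both caveolin genes, and with the strand setting of the counting not given in the sources used here, reads of the partners cannot be told apart.

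EHD2 (ENSG00000024422.12, chr19:47713422-47743134, plus strand), the neck ATPase, had the lowest CPM of the 4 in parental cells and overlaps a noncoding gene on the same strand, AC010519.1. Parental libraries held 14.6, 14.9, 15.4 and 10.6 CPM at 0 h, 8.83, 7.06, 9.27 and 6.91 at 16 h, and 5.31, 8.58, 5.17 and 5.51 at 96 h. It fell by 0.82 on the log2 scale at 16 h (SE 0.225, adjusted p = 0.0171, edgeR) and by 1.18 at 96 h (SE 0.231, adjusted p = 0.00068). The 16 h call ended without replicate 1 at 0 h or replicate 2 at 16 h (adjusted p = 0.0535 and 0.0661), and the 96 h call held in all 19 alternatives. LB1 libraries went from 12.2, 12.6 and 10.6 CPM over 7.11, 7.46, 7.75 and 5.92 at 16 h to 4.11, 5.68, 5.58 and 6.18 at 96 h, a fall of -1.12 (SE 0.249, adjusted p = 0.00399). LB2 libraries held 22.2, 10.8, 7.64 and 13.0 CPM at 0 h, 9.65, 7.85, 6.53 and 9.00 at 16 h, and 4.61, 8.08 and 8.77 at 96 h. The times overlapped, and the change of -0.74 at 96 h did not pass (adjusted p = 0.0896, edgeR). It passed by DESeq2 (-0.77, adjusted p = 0.0352), after trend removal (-0.61, adjusted p = 0.029), under the replicate block with it (-0.61, adjusted p = 0.0315) and without replicate 3 at 0 h (-0.96, adjusted p = 0.0249), and it was -0.49 (adjusted p = 0.189) without the 3 libraries that stand apart. In LAC the level was 24.0, 13.1, 17.6 and 14.9 CPM at 0 h, 12.4, 9.08, 9.48 and 8.60 at 16 h, and 8.60, 5.98, 4.77 and 6.82 at 96 h. The untreated libraries lay above all later ones, and the 16 h and 96 h libraries met at 8.60 CPM. The described change at 96 h was -1.37 (SE 0.22), or -0.97 after removal of the GC and length trend.

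The members' counts by edgeR are set here beside the share of all genes that edgeR called. Here and below, counts at an unadjusted p, by another tool or with libraries left out have no such share beside them. Nothing is read from those counts. In the parental line 3 of the 4 tested members were lower at 16 h and 4 of 4 at 96 h, where 4.78% and 3.84% of all 21484 genes were called lower. In LB1 at 96 h 4 of 4 were lower (2.12% of all genes), and in LB2 at 96 h 3 of 4 (1.6%). The median log2 fold change of the 4 members was -1.11, -1.33 and -0.98 in the parental, LB1 and LB2 lines at 96 h, and that of all tested genes was -0.03, 0.04 and 0.00. In LB1 at 16 h 0 members passed by edgeR (1.5% of all genes called), with 3 at an unadjusted p under 0.05, 1 by DESeq2 and 2 by limma-voom. Without the 3 libraries that stand apart 3 passed there, CAVIN1 higher (0.55, adjusted p = 0.0368) and CAV2 (-0.58, 0.0439) and EHD2 (-0.74, 0.0257) lower. Those libraries are of LAC and LB2 cells. They enter the LB1 comparison only through the fit, in which all groups share the estimate of the spread. In LB2 at 16 h 0 passed (1.81%), with 0 at an unadjusted p under 0.05 and 0 by either other tool. No count is given for LAC under auxin, where the rule chose the members. The comparisons of 16 h and 96 h within a line share the untreated libraries.

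**Figure D2:**
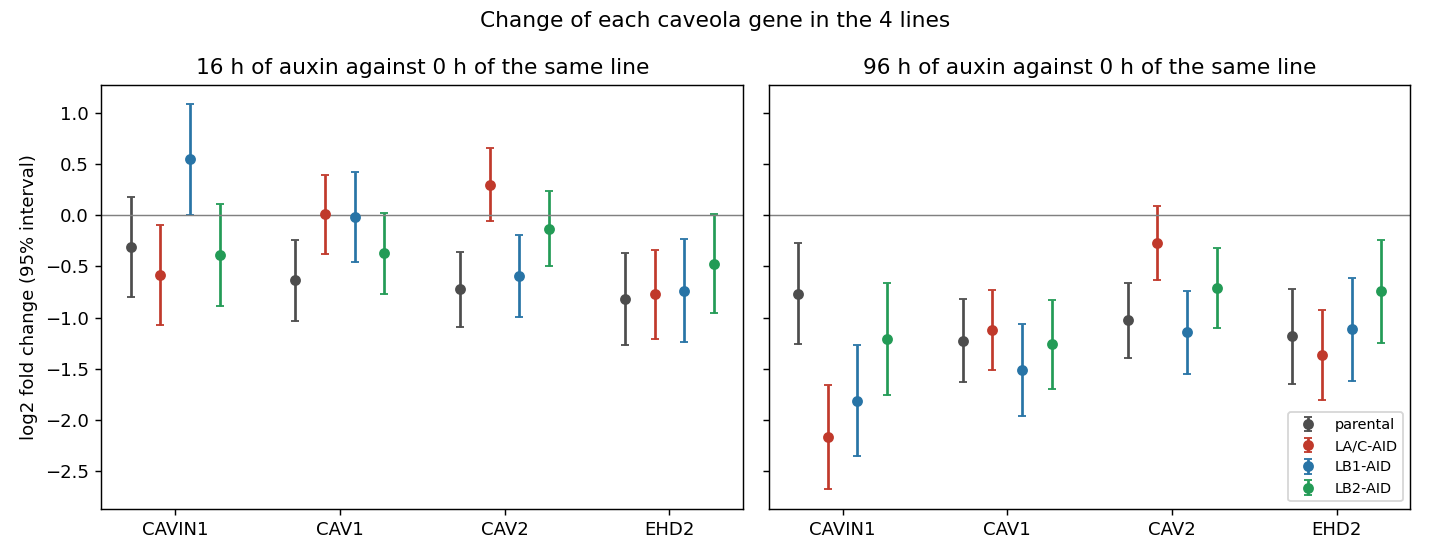
Log2 fold change against 0 h of the same line (y axis) with its 95% interval for the 4 tested members, at 16 h (left) and 96 h (right), 1 colour per line. All 16 values at 96 h are below 0. The LAC values are a description, and no test is read from their intervals.

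The auxin responses of the tagged lines were also set against that of the parental line. Against the parental response at 96 h, the LB1 values of CAV1, CAV2 and EHD2 were -0.29 (95% interval -0.89 to 0.32), -0.12 (-0.66 to 0.43) and 0.07 (-0.62 to 0.75). The LB2 value of CAVIN1 was -0.44 (-1.17 to 0.28), a direction set by 1 library: it was 0.10 without replicate 1 of LB2 at 0 h, 0.12 without the 3 libraries that stand apart, 0.15 without libraries under 5000000 counts and 0.23 by limma-voom. The other LB2 values were -0.04 for CAV1 (-0.62 to 0.55), 0.32 for CAV2 (-0.21 to 0.86) and 0.44 for EHD2 (-0.24 to 1.12). By edgeR 0 members passed in LB1 (1.04% of all genes) and 0 in LB2 (0.368%) at 96 h, with 1 and 0 at an unadjusted p under 0.05, 0 and 0 by DESeq2, and 1 and 1 by limma-voom. At 16 h the LB1 differences were 0.86 for CAVIN1 (0.13 to 1.59), 0.62 for CAV1 (0.02 to 1.21), 0.13 for CAV2 (-0.41 to 0.67) and 0.08 for EHD2 (-0.60 to 0.76). The LB2 differences at 16 h were -0.08 for CAVIN1 (-0.77 to 0.62), 0.26 for CAV1 (-0.29 to 0.82), 0.59 for CAV2 (0.08 to 1.11) and 0.34 for EHD2 (-0.31 to 1.00). At that time 0 passed in LB1 (0.0279%) and 0 in LB2 (0.00465%), with 2 and 1 at an unadjusted p under 0.05 and 0 by either other tool. A p that misses the threshold does not show that the lines respond alike. In LAC the described differences from the parental response at 96 h were -1.40 for CAVIN1, 0.10 for CAV1, 0.76 for CAV2 and -0.18 for EHD2. At 16 h they were -0.27, 0.64, 1.02 and 0.04. After removal of the GC and length trend, EHD2 turned to 0.31 at 96 h and CAVIN1 to 0.07 at 16 h, and EHD2 at 16 h was 0.38. Without the 3 libraries that stand apart, CAVIN1 was 0.02 at 16 h and CAV1 -0.08 at 96 h. All of these share the parental libraries.

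Before auxin, 2 members were past the threshold between LAC and parental cells (15.8% of all genes called), CAV2, which was lower, and CAVIN1, from which nothing is read since its LAC libraries chose the group. There was 1 between LB1 and parental cells (4.05%), CAV1 lower, joined by CAVIN1 without the 3 libraries that stand apart (-0.59, adjusted p = 0.0204). In LB2 0 passed by edgeR (8.21%), with 1 at an unadjusted p under 0.05, 0 by DESeq2 and 1 by limma-voom. Over the 12 groups the mean CPM spanned 9.29-fold for CAVIN1, from 508 ± 199 in untreated LAC to 54.7 ± 9.00 in LB1 at 96 h, and 7.45-fold for CAV1, from 71.8 ± 18.7 in untreated LB2 to 9.64 ± 1.13 in LB1 at 96 h. The span was 3.02-fold for CAV2 and 3.23-fold for EHD2. LB1 at 96 h was the lowest group for all 4. Of the 11 steps between neighbouring groups in order of level, only 2 for CAVIN1 (LB2 at 96 h to LAC at 96 h, and LAC at 96 h to LB1 at 96 h), 1 for CAV1 (parental at 96 h to LB1 at 96 h) and 0 for CAV2 and EHD2 exceeded the SDs of both groups together.

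The ratio of CAVIN1 to EHD2 compares 2 members of like GC content within a library. It was 20.9 ± 2.15 in untreated parental cells and 27.6 ± 0.527 at 96 h (SD, n = 4 each), without overlap (18.4 to 23.6 against 27.1 to 28.3), and 29.4 ± 3.78 at 16 h. In LB1 it was 16.4 ± 2.84 at 0 h (n = 3, 13.2 to 18.6), 39.6 ± 11.2 at 16 h (n = 4, lowest 32.5) and 10.3 ± 1.49 at 96 h (n = 4, 8.19 to 11.7), so the 16 h libraries lay above all untreated ones and the 96 h libraries below them. In LAC it was 28.6 ± 3.32, 34.3 ± 4.21 and 17.4 ± 3.01 at 0, 16 and 96 h, and in LB2 27.7 ± 7.05, 34.9 ± 4.48 and 24.0 ± 5.50. These ratios were chosen after the values were seen and are a description. Over the 12 group means of log2 CPM, the correlation of CAVIN1 with CAV1 was 0.899 (Pearson's r) and that of CAV1 with CAV2 was 0.797. Over the 46 libraries, after each group's mean was taken out, CAVIN1 went with EHD2 (r = 0.779) and CAV1 with CAV2 (0.591), and CAVIN1 did not go with CAV1 (-0.32). The points share lines, depth and the GC trend, so these are descriptions.

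**Figure D3:**
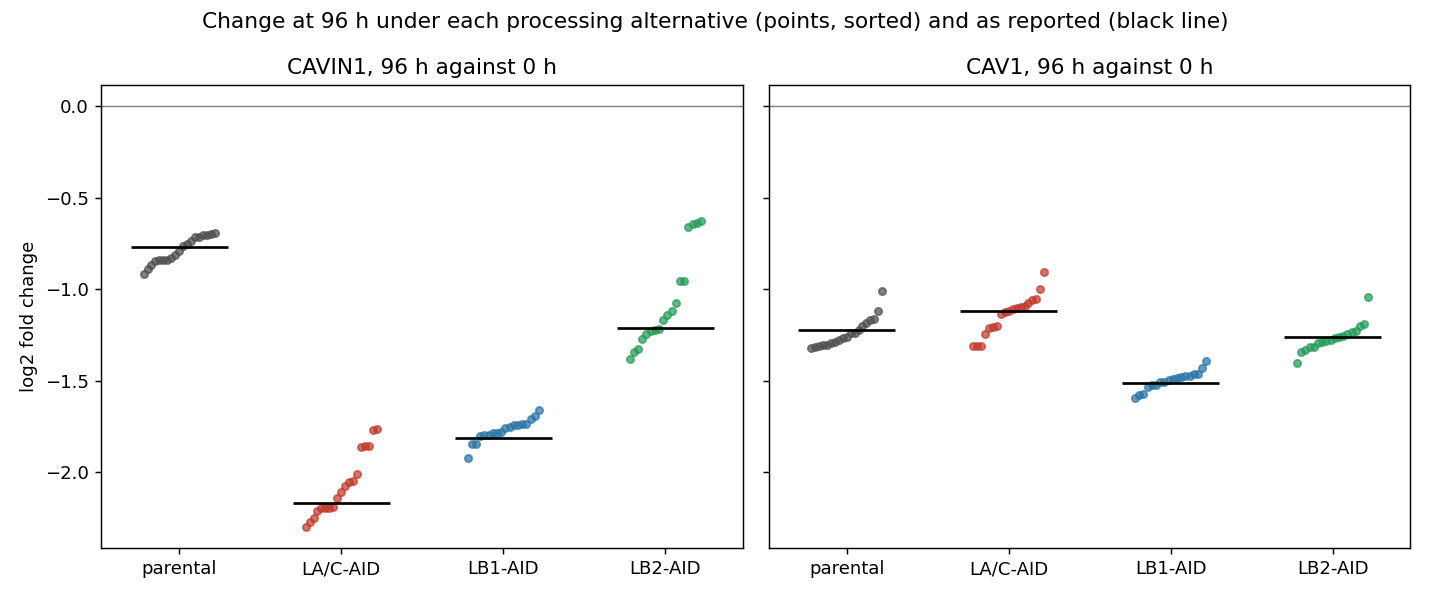
Log2 fold change at 96 h against 0 h (y axis) of CAVIN1 (left) and CAV1 (right) in the 4 lines. Points are the processing alternatives in order of value and black lines the values reported. All stay below 0, and CAVIN1 in LB2 runs from -1.38 to -0.63.

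Of 20 other genes that build, shape or signal from caveolae, 18 were tested (EHD3 and PACSIN1 were too low). At 96 h 4 of 18 were lower in LB1 by edgeR, which called 2.12% of all genes lower. In either direction, 11 had an unadjusted p under 0.05, 5 passed by DESeq2 and 9 by limma-voom. The share of all genes is not given for these 3 counts, and nothing is read from them. The edgeR calls were led by FLNA, the actin crosslinker that links caveolae to stress fibres. FLNA held 2503, 2939 and 2859 CPM at 0 h and 881, 958, 1169 and 1322 at 96 h, without overlap, a fall of -1.35 (SE 0.187, adjusted p = 1.59e-06, edgeR) that passed in all 18 alternatives. The others were EHD1 and EHD4, relatives of EHD2, at -0.70 and -0.52, and the phosphatase PTPN14 at -0.59, named after their values were seen. In LB2 at 96 h EHD4 alone passed, at -0.49 (adjusted p = 0.0381, edgeR; 1.6% of genes lower), a call that ended without any 1 of 6 of the 7 libraries, all but replicate 3 at 0 h (0.0574 to 0.247), and without the 3 libraries that stand apart (-0.38, adjusted p = 0.0595). In the parental line ROR1, a receptor that scaffolds caveolin and cavin, was higher at 16 h (0.52, adjusted p = 0.0244, edgeR) and at 96 h (0.60, adjusted p = 0.00982). ABL1 was also higher at 16 h (0.45, adjusted p = 0.0438, named after its value was seen), so 2 of 18 were higher at 16 h (4.23% of all genes) and 1 at 96 h (3.94%). The tyrosine kinase ABL2 was the only one lower at 96 h (-0.43, adjusted p = 0.0415; 3.84% of genes lower), lost without any 1 of 7 of the 8 libraries, all but replicate 1 at 96 h (0.055 to 0.331). The ROR1 call at 16 h ended without replicates 1 or 3 at 0 h or 3 or 4 at 16 h (0.0516 to 0.0858), and that at 96 h held in all 19 alternatives.

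Before auxin 6 of 18 were higher in LAC than in parental cells (8.71% of all genes), with EHD1 at 0.86 (SE 0.143, adjusted p = 3.12e-05, edgeR) the largest. ABL2 was lower in LB1 (-0.58, adjusted p = 0.0156, edgeR; 2.43% of genes lower), a call lost without parental replicate 2 or LB1 replicates 2 or 3 (0.0814 to 0.2). FLOT1, a flotillin of membrane microdomains, was higher in LB2 (0.46, adjusted p = 0.0162, edgeR; 3.91%), lost without parental replicate 4 (0.0748). At 16 h 0 of 18 passed by edgeR in LB1 (1.5% of all genes) and in LB2 (1.81%), with 4 and 3 at an unadjusted p under 0.05, 0 and 0 by DESeq2 and 2 and 2 by limma-voom. At 96 h the log2 fold change was below 0 for 12 of 18 in the parental line, 14 in LB1, 14 in LB2 and, as a description, 13 in LAC. The share of all genes below 0 is not given beside these counts. The median of the 18 was -0.19, -0.35, -0.25 and -0.49 in that order, and that of all tested genes was -0.032, 0.044, -0.0024 and 0.031. The number of calls depends on the fit: over all tested comparisons it was 17, and 40 after trend removal. Calls over all genes rose under trend removal too, in every tested comparison. At 96 h they went from 682 to 1546 in LB1 and from 1671 to 2960 in the parental line. Nothing about these 18 genes is read from the rise.

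**Figure D4:**
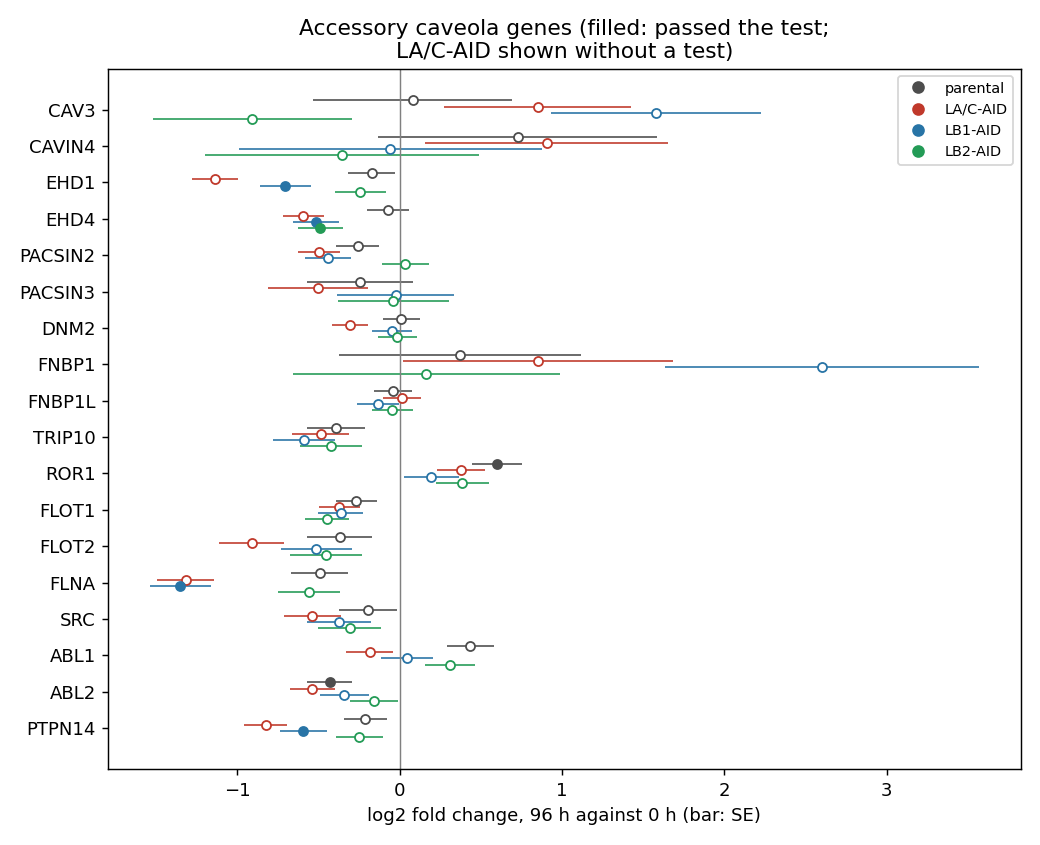
Log2 fold change at 96 h against 0 h (x axis, bars for the SE) of the 18 tested accessory genes, 1 colour per line. Filled points passed the test, with none marked for LAC, which is shown without a test. FLNA in LB1 is at -1.35, and the bars of CAV3, CAVIN4 and FNBP1 are wide.

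The genes whose level followed CAVIN1 most closely over the 12 groups were MAP4, a microtubule-associated protein (r = 0.983), INAVA (0.980), the actin regulator CORO1B (0.974), the keratin KRT80 (0.965) and the actin-binding FLII (0.961). Those nearest to CAV1 were MICB, a ligand of a natural killer cell receptor (0.969), the mitochondrial exchanger SLC8B1 (0.965), WWC2 (0.961), the focal adhesion adaptor TGFB1I1 (0.958) and the protease CAPN2 (0.958). These were taken by Pearson's r of the group means of log2(CPM + 0.5) among 10856 genes with a symbol and at least 5 CPM. The lists depend on the points used. Over the 46 single libraries, MAP4, INAVA and KRT80 stayed among the 5 nearest to CAVIN1, and CORO1B and FLII did not. WWC2 and CAPN2 stayed among the 5 nearest to CAV1, and MICB, SLC8B1 and TGFB1I1 did not. With RLE scaling TGFB1I1 alone left its list. MAP4 moved over a narrower range than CAVIN1, from 481 ± 34.6 CPM in untreated LAC to 234 ± 30.8 in LB1 at 96 h.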

How the data were processed

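Raw gene counts of 46 libraries were deposited by the authors as a single table. It came from featureCounts 1.6.4 of an nf-core/rnaseq 1.4.2 environment, per the file headers, and the submitters' processing notes name STAR 2.7.10a and GRCh38. The strand setting and annotation release are not given in the sources used here. All 46 count columns were matched by name, and 3 lines that held no complete gene row were left out. The counts were fitted in edgeR 4.0.16 (R 4.3.3): 1 quasi-likelihood fit with 12 group coefficients, TMM scaling and filterByExpr, two-sided tests adjusted by Benjamini-Hochberg over 21484 genes, called under 0.05. The script recovered changes of known size in counts simulated for 1 comparison. Those counts held no GC trend and no library that stands apart, so this checks the code and not its fit to these data. GC content, overlaps and exons came from GENCODE release 29.

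The members, lists and tests were chosen with earlier results of these data known. Named were the 6 members, the called accessory gene that rose and fell most per comparison, the 5 genes most like CAVIN1 and CAV1, and the 3 lamins. Names outside this rule are marked where they occur. Alternatives were RLE scaling, library size, no filter, GC and length trend removal, the replicate block (also with that removal), limma-voom 3.58.1, DESeq2 1.42.0, the compared groups alone, libraries of 5000000 counts or more, and each replicate left out. Leaving out the 3 libraries that stand apart was chosen after seeing the data.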

Additional observations from a re-analysis of the deposited data

Results flagged for a closer look

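The 4 tested members were each examined in the 10 groups of 4 libraries. These 40 sets share libraries and are not independent. No excess is therefore read from the number of flags, though chance gives about 1 in 20 for a single set. Among the sets, 8 extreme values lay apart from the other 3 by more than 0.829 of the group's range. For CAVIN1 these were 214 CPM in parental replicate 2 at 16 h (the others 237 to 241), 232 CPM in parental replicate 2 at 96 h (the others 147 to 151) and 773 CPM in LB2 replicate 1 at 0 h (the others 242 to 274). For CAV1 it was 99.8 CPM in LB2 replicate 2 at 0 h (the others 60.4 to 64.7). For CAV2 they were 31.9 CPM in parental replicate 2 at 0 h (the others 24.9 to 26.1) and 23.1 CPM in LAC replicate 2 at 0 h (the others 12.7 to 13.9). For EHD2 they were 10.6 CPM in parental replicate 4 at 0 h (the others 14.6 to 15.4) and 8.58 CPM in parental replicate 2 at 96 h (the others 5.17 to 5.51). Parental replicate 2 at 96 h was high in both CAVIN1 and EHD2, whose transcripts are both rich in GC. The part of GC content in this was not tested.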

How the results depend on the processing

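The direction of each called member change held under every alternative run. All 4 calls in LB1 at 96 h, and those of CAV1, CAV2 and EHD2 in the parental line and CAV1 in LB2 at 96 h, passed throughout. The number of members called in LB1 at 16 h (0) became 1 with the library size alone, DESeq2 or without libraries under 5000000 counts, 2 with limma-voom or removal of the GC and length trend, with or without the block, and 3 without the libraries that stand apart. In LB2 it became 1 at 16 h (from 0) under the block with trend removal, and 1 at 96 h (from 3) with the compared groups alone. For LAC against parental at 0 h (2) it was 1 with the groups alone or without shallow libraries. For LB1 at 0 h (1) it was 2 under trend removal, with or without the block, limma-voom, the groups alone, and without shallow or apart libraries. For LB2 at 0 h (0) it was 1 under the block with trend removal, limma-voom, and without shallow or apart libraries. The LB1 response against the parental one (0) gave 1 at 16 h under the block with trend removal, and 1 at 96 h without the filter, under trend removal, with or without the block, limma-voom, the groups alone, and without shallow or apart libraries. The LB2 response at 96 h (0) gave 1 by limma-voom. The accessory genes' calls over all tested comparisons, 17, became 11 without the filter, 40 under trend removal, 46 with the block as well, 44 by limma-voom, 27 with the groups alone and 36 without the apart libraries. Trend removal raised the calls over all genes in every tested comparison too, in LB1 at 16 h from 323 to 996. For the other settings no share of all genes is given. The cause of these shifts was not tested.

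Leaving out 1 library gave 1 to 3 members in the parental line at 16 h, 3 to 4 at 96 h, 2 to 3 in LB2 at 96 h, 1 to 2 for LAC and 0 to 1 for LB1 at 0 h, 12 to 19 accessory calls, and a CAVIN1 change in LAC of -0.72 to -0.28 at 16 h and -2.30 to -1.86 at 96 h. With the replicate block the members' counts did not change (3 and 4 in the parental line, 0 and 4 in LB1, 0 and 3 in LB2, at 16 h and 96 h), and the accessory calls were 18. The labels name no source that same-numbered libraries share. Same-numbered libraries of different groups had a median correlation of deviations of 0.0443, with 105 of 243 pairs over 0.1. Differently numbered ones had -0.00594, with 248 of 726 pairs over 0.1. Of the 46 libraries, 25 correlated best with a library of their own number. Whether the numbers mark a shared source was not tested, and the main fit does not use them.

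Values that missed the test changed sign as follows (log2). CAV1 in LB1 at 16 h was 0.00168 without the filter, 0.01877 under the block, 0.001483 by limma-voom and -0.1027 to 0.06501 with 1 library left out. CAVIN1 in LB2 at 16 h was 0.1457 by limma-voom, 0.2359 without shallow libraries, 0.221 without apart ones and -0.5612 to 0.1584 with 1 library left out, the latter without LB2 replicate 1 at 0 h. At 0 h against parental, CAV1 in LAC was -0.1041 by library size and -0.09432 to 0.3043 with 1 library left out, EHD2 in LAC -0.03761 under trend removal and -0.03207 with the block as well, CAVIN1 in LB2 -0.1256 by limma-voom, -0.2153 without shallow, -0.1444 without apart libraries and -0.1565 to 0.5643 with 1 library left out, and EHD2 in LB2 -0.4343 to 0.01554 with 1 left out. Among response differences, EHD2 in LB1 was -0.001827 to 0.1753 at 16 h with 1 library left out, and at 96 h -0.00193 without the filter and -0.03276 to 0.2251 with 1 left out. CAV2 in LB1 at 96 h was 0.05354 by library size, 0.01072 under the block with trend removal and -0.2679 to 0.03552 with 1 library left out. CAVIN1 in LB2 at 16 h was 0.2457 under trend removal, 0.2595 with the block as well, 0.5024 by limma-voom, 0.5827 without shallow, 0.5408 without apart libraries and -0.2717 to 0.4316 with 1 library left out, and at 96 h 0.2272 by limma-voom, 0.1544 without shallow, 0.1166 without apart libraries and -0.6135 to 0.09827 with 1 left out. CAV1 in LB2 at 96 h was 0.02589 by RLE, 0.1258 by library size, 0.03751 under trend removal, 0.02761 by DESeq2 and -0.2301 to 0.1808 with 1 library left out.

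Scaling by library size in place of TMM moved the median of all genes from -0.0382 to -0.154 in the parental line at 16 h, from 0.0308 to 0.152 in LAC at 96 h and from -0.057 to -0.238 in LAC at 0 h. The share of called genes that were higher went with it from 47% to 21.3%, from 43.8% to 66.8% and from 55.1% to 23.8%, and in the parental line at 96 h from 50.7% to 30.9%, in LB1 from 33.1% to 47.5% and in LB2 from 55% to 72.3%. EHD2 had 3 counts in the shallowest library.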
